A study of Mus musculus with 35 samples.

Results

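Interferon stimulated genes (ISGs) are the genes that cells switch on after an interferon binds its receptor, and 48 of them were followed across mouse CD8 T cells with a deleted, a heterozygous or an intact Dot1l gene. The members were a list of mouse symbols chosen with earlier results of these data known, so their shares against all genes are a description. All 48 matched 1 row each of a table of 52636 genes. Of the 48, 39 had enough reads to be tested, among 10296 tested genes in all. Dot1L is the methyltransferase that places methyl groups on lysine 79 of histone H3. KO libraries came from Lcre+/-;Dot1Lfl/fl mice, Het libraries from Lcre+/-;Dot1Lfl/wt mice and WT libraries from Lcre+/-;Dot1Lwt/wt mice, so every mouse, the WT mice included, carried the Cre transgene. That transgene is known from the study as a Cre under the Lck promoter, which is active in T cells from an early thymocyte stage. All mice were C57BL/6, and the labels give no age. From each genotype 3 populations were sorted by flow cytometry, CD8 single positive thymocytes, CD44- CD62L+ naive cells of the spleen and CD44+ CD62L+ memory cells of the spleen. Each of the 9 groups had 4 libraries, except WT thymus with 3, which makes 35 libraries. The labels do not say that replicates were separate mice, so a p-value here reflects how far these samples spread, which may be technical in part.

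Type I and type III interferons act through receptor kinases of the JAK family that phosphorylate STAT proteins, STAT2 among them. These join IRF9 to form ISGF3, a transcription factor that binds the interferon stimulated response element (ISRE) in the promoters of ISGs. Interferon gamma acts mainly through the gamma activated site (GAS) of promoters and induces IRF1, guanylate binding proteins and the class I antigen processing genes. T cells carry a low tonic level of ISG transcripts, and the ISG programme is known to rise late in thymocyte maturation. The 48 members were ordered by role into 4 transcription factors, 6 sensors and regulators of RNA and DNA, 4 members of the OAS family, 13 antiviral effectors, 8 members of the ISG15, ubiquitin and PARP system, 9 interferon inducible GTPases and 4 genes of class I antigen processing.

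The promoters of 6 members are printed first, because these were called in the most KO against WT comparisons and have a RefSeq entry. Each window runs from 250 bases before to 50 bases from the start site, on the strand of the gene, in the GRCm38.p6 build. Capitals mark the core of an ISRE, which is GAAA, any 2 bases and GAAA again, on either strand.

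Gbp3 chr3:142559794-142560093 (+ strand): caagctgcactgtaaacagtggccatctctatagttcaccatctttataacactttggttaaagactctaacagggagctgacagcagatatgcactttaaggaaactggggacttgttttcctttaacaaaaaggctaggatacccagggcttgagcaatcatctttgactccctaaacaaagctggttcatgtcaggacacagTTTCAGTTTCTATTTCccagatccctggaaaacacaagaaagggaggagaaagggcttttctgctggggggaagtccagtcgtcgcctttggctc
Rsad2 chr12:26456403-26456702 (- strand): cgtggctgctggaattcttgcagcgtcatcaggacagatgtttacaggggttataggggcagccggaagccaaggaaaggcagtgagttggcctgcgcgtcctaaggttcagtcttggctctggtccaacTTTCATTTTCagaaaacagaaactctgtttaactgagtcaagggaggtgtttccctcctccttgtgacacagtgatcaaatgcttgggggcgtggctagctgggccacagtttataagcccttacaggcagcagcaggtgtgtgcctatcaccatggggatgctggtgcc
Irf9 chr14:55603735-55604034 (+ strand): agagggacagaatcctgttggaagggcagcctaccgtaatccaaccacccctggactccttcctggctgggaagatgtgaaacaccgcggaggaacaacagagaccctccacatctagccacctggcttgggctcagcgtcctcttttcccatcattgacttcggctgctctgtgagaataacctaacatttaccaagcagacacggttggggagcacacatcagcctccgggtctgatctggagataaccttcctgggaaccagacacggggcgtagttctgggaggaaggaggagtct
Oas3 chr5:120777610-120777909 (- strand): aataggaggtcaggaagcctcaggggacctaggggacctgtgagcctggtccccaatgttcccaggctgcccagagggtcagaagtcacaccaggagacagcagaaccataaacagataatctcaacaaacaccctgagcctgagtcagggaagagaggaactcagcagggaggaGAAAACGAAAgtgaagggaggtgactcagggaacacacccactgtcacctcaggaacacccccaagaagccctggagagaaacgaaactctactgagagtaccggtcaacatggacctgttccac
Ifih1 chr2:62646206-62646505 (- strand): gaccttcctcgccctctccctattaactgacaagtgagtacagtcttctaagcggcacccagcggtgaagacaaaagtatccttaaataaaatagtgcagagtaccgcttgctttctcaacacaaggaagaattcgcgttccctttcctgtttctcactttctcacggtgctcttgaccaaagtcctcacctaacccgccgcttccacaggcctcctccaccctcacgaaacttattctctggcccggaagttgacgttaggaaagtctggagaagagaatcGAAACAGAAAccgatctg
Irf7 chr7:141266375-141266674 (- strand): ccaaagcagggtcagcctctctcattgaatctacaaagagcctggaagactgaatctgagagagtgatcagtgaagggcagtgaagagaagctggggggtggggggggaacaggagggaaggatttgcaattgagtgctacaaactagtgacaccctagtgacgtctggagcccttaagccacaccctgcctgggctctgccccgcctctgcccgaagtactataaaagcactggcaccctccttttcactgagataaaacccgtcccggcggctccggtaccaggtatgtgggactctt

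Gbp3 held 2 overlapping matches that began 45 and 39 bases before the start site, Rsad2 held 1 match 120 bases before it, Oas3 held 1 match 75 bases before it, and Ifih1 held 1 match 32 bases after it. The Irf9 and Irf7 windows held no match to these letters. Of the 48 members 36 had an entry in the promoter table, and 16 of those 36 held the ISRE core on either strand, against 1131 of all 32851 windows (3.44%). TTCNNNGAA, the core of a GAS, was present in 9 of the 36 windows, against 2726 of all windows (8.3%). Among the 11 matched members called in any KO against WT comparison 6 held the ISRE core, and among the 25 other matched members 10 did. Those 25 include members with too few counts to be tested, among them Bst2 and Isg15, which held the core. A match describes the letters of the window and is not a measured binding site.

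Libraries held 4809509 to 16879636 counted reads (median 10406516). Dot1l transcripts were not lower in KO cells, with 77.3 ± 1.69 CPM in KO and 67.1 ± 5.20 in WT thymus, 55.7 in KO and 49.5 in WT naive cells, and 45.8 in KO and 45.4 in WT memory cells. CPM are counts scaled to library size, with trimmed mean of M values (TMM) normalization, and values after ± are SD. The count covers the whole transcript, so it does not check the floxed part. Cd44, the gate of the spleen subsets, was higher in KO naive cells, at 5.49, 5.91, 18 and 6.30 CPM against 2.60, 1.53, 4.26 and 2.72 in WT naive cells (log2 fold change 1.61 ± 0.30 SE, edgeR adjusted p = 0.000158), with KO naive replicate 3 far above the others. Of the 39 tested ISGs, the mean log2 CPM was 2.97, 3.08, 2.80 and 2.35 in KO naive replicates 1 to 4, so replicate 4 stood below its group. All 7 CD8 T cell markers were detected, with Cd3e at 221 CPM in KO and 213 in WT naive cells and Cd8a at 8.23 in KO and 11.3 in WT naive cells. Cd8b1 (6.73 in KO and 8.24 in WT), Cd2 (6.23 and 5.44) and Thy1 (12.21 and 10.35) were also low there, beside Lck at 923 and 908. Genes that define the sorted cells thus had few CPM, so a low count here need not mark a low transcript level. None of the 7 was called in naive cells, but Cd8a (-0.75, adjusted p = 0.0355) and Cd8b1 (-0.77, adjusted p = 0.038) were lower in KO than in WT memory cells, and Cd8b1 (-0.85, adjusted p = 0.0377) in KO thymus. Genes of sorting stress gave no KO against WT call in the spleen subsets and 1 in the thymus. Xist marked 11 of the 35 libraries as female, 1 in each group but 2 in WT naive and WT memory.

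**Figure D1:**
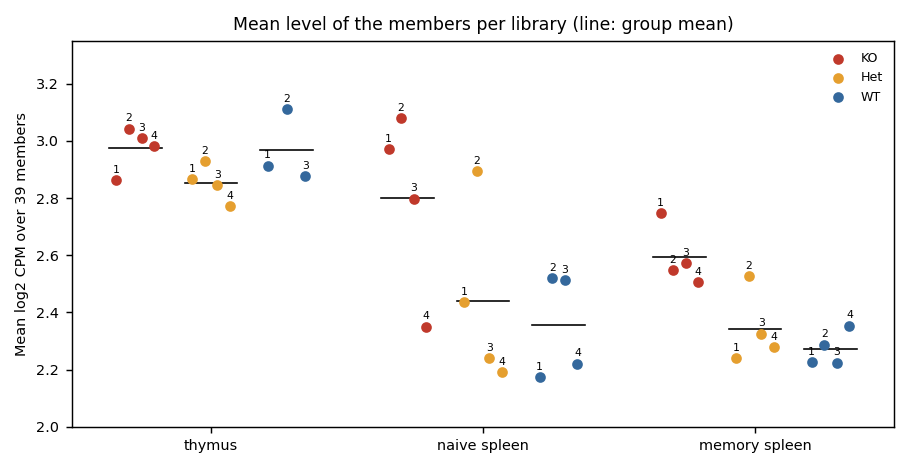
Mean log2 CPM over the 39 tested ISGs in each library (y axis), by subset and genotype (x axis), each point a library with its replicate number and each line a group mean. KO naive libraries spread from 2.35 to 3.08, WT naive libraries from 2.17 to 2.52, and the 3 genotypes overlap in the thymus.

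Of the 48 members, 9 had too few counts to be tested, which does not show that their transcripts were absent. Their highest count in any library was 9 reads for Oasl2, 10 for Bst2, 15 for Isg20, 12 for Xaf1, 10 for Rtp4, 7 for Ifi44, 8 for Isg15, 14 for Usp18 and 8 for Gbp6. Isg15, which encodes the ubiquitin-like protein ISG15, and Usp18, which removes it and dampens interferon signalling, were thus at or near the limit of detection of these counts in all 9 groups. The genes for the ligands were not detected either. None of 10 interferon genes was testable, 8 of them had no read in any library, and the highest count was 1 read.

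In naive cells, ISGs of several roles, among them transcription factors, a sensor, OAS genes and effectors, were higher in KO than in WT, with the virus-restricting radical SAM enzyme Rsad2 the most changed. Of the 39 tested members 9 were higher and 0 were lower (23.1% higher, against 11.1% of all tested genes higher, 7.11% lower and 18.2% in either direction). Among the 39, 17 had an unadjusted p under 0.05, and DESeq2 called 9 higher and 0 lower. Counts at an unadjusted p and DESeq2 counts are given throughout for members only, without the share of all genes. The median log2 fold change was 0.26 over the members and 0.003 over all tested genes. A positive value was found for 32 of 39 members and for 50.6% of all tested genes. The test was edgeR's quasi-likelihood F test over 1 fit of all 35 libraries, with Benjamini-Hochberg adjustment over the 10296 genes and a call at an adjusted p under 0.05. In these bulk samples, a change in the share of cells that carry a transcript and a change in transcript per cell cannot be told apart. When fold changes were centred on the mean log ratio of all genes, the median of all genes moved to -0.11 and the calls became 8 higher and 2 lower among members, and 886 higher and 1612 lower among all genes, against 1147 higher and 732 lower with TMM.

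Among the transcription factors, Irf7 and Irf9 were higher in KO naive cells. Irf9, the DNA-binding subunit of ISGF3, had 74.9, 73.5, 72.7 and 67.9 CPM in KO, 65.4, 65.9, 59.1 and 60.1 in Het and 57.4, 57.4, 60.1 and 53.8 in WT naive cells. Every KO library lay above every Het and WT library. The difference from WT was 0.34 ± 0.08 on the log2 scale (edgeR adjusted p = 0.00213), and with mean log ratio centring it was no longer called (adjusted p = 0.0565). Irf7, which amplifies type I interferon production, had 4.39, 4.82, 4.62 and 3.07 CPM in KO, 2.85, 3.86, 2.60 and 1.47 in Het and 2.17, 1.92, 3.41 and 1.47 in WT naive cells. The KO and WT ranges overlapped, since KO replicate 4 lay below WT replicate 3. Its log2 fold change was 0.88 ± 0.26 (adjusted p = 0.0122), and without WT naive replicate 4 the call was lost (adjusted p = 0.0903). Irf1, the main interferon gamma induced factor, averaged 92.7 CPM in KO and 82.3 in WT naive cells (log2 fold change 0.17, adjusted p = 0.321), and Stat2 gave 0.32 at 1 to 4 CPM (adjusted p = 0.572).

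Among the sensors, 1 of 6 was called in naive cells. Ifih1 encodes MDA5, a cytosolic sensor of long double-stranded RNA. It had 19.3, 16.6, 18 and 13.2 CPM in KO, 7.17, 12.5, 9.93 and 8.74 in Het and 8.01, 10.9, 9.66 and 10.8 in WT naive cells, with no overlap between KO and either other genotype. The log2 fold change against WT was 0.75 ± 0.19 (adjusted p = 0.00263). The sensors Ddx58, Dhx58 and Eif2ak2 had positive fold changes that did not pass the adjusted threshold. Ddx58 encodes RIG-I (0.40, adjusted p = 0.0659), Dhx58 its regulator LGP2 (0.96, adjusted p = 0.0768), and Eif2ak2 the kinase PKR (0.99, adjusted p = 0.106). Over the 6 sensors the median log2 fold change was 0.57, and 5 had an unadjusted p under 0.05.

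OAS enzymes make 2'-5' oligoadenylates that activate RNase L. Of the 3 tested members of the OAS group 2, Oas3 and the OAS-like Oasl1, were higher in KO naive cells. Oas3 had 5.49, 8.98, 9.25 and 5.97 CPM in KO, 1.87, 5.74, 5.08 and 3.41 in Het and 3.68, 3.45, 4.17 and 2.30 in WT naive cells. All KO libraries exceeded all WT libraries, and KO replicate 1 lay below Het replicate 2. The log2 fold change against WT was 1.12 ± 0.24 (adjusted p = 0.000428). Oasl1, an OAS-like protein that represses Irf7 translation, had 1.44, 1.64, 1.61 and 0.746 CPM in KO and 0.216, 0.511, 0.757 and 0.314 in WT naive cells. These values rest on 9 to 17 reads per KO library and 1 to 8 per WT library, and KO replicate 4 lay just below WT replicate 3. The log2 fold change was 1.45 ± 0.42 (adjusted p = 0.01), and the call was lost without WT naive replicate 4 (adjusted p = 0.0554). Oas2 gave 1.35 but stayed under 2 CPM in every naive library of these genotypes (adjusted p = 0.167).

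Among the antiviral effectors 3 of 8 tested members were higher in KO naive cells. Rsad2, which encodes viperin, had 9.20, 8.43, 7.53 and 4.47 CPM in KO, 1.96, 4.75, 2.25 and 1.75 in Het and 1.52, 2.43, 1.89 and 0.837 in WT naive cells. The lowest KO library exceeded the highest WT library, and only Het replicate 2 reached the KO range. On counts of 54 to 109 reads per KO library and 7 to 20 per WT library, the log2 fold change was 2.14 ± 0.33 (adjusted p = 6.15e-06). Cmpk2, a mitochondrial nucleotide kinase gene next to Rsad2 on chromosome 12 and on the opposite strand, had 1.94, 1.75, 1.94 and 0.497 CPM in KO and 0.866, 0.256, 0.284 and 0.523 in WT naive cells. It was the ninth of the called members, and its KO replicate 4 lay within the WT range. Its log2 fold change was 1.76 ± 0.55 (adjusted p = 0.0199), and the call was lost when WT naive replicate 2 or 3 or KO naive replicate 1 or 3 was left out (adjusted p up to 0.0808).

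Mx1, a dynamin-like GTPase gene whose C57BL/6 allele encodes a truncated protein, had 9.03, 9.20, 8.82 and 5.05 CPM in KO, 3.83, 5.84, 3.43 and 3.77 in Het and 3.03, 2.94, 4.45 and 3.56 in WT naive cells. KO replicate 4 was the lowest KO library and still exceeded every WT library. The log2 fold change was 1.16 ± 0.24 (adjusted p = 0.000344). Ifit1, which binds viral RNA that lacks cap methylation, had 18.1, 19.2, 15.6 and 7.95 CPM in KO and 8.44, 9.33, 8.24 and 8.06 in WT naive cells. KO replicates 1 to 3 exceeded all WT libraries and KO replicate 4 lay below them, and the difference of 0.83 was not called (adjusted p = 0.0658). Samd9l, a restriction factor of poxviruses, was among the few members with a negative value, at -0.27 (adjusted p = 0.0798).

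**Figure D2:**
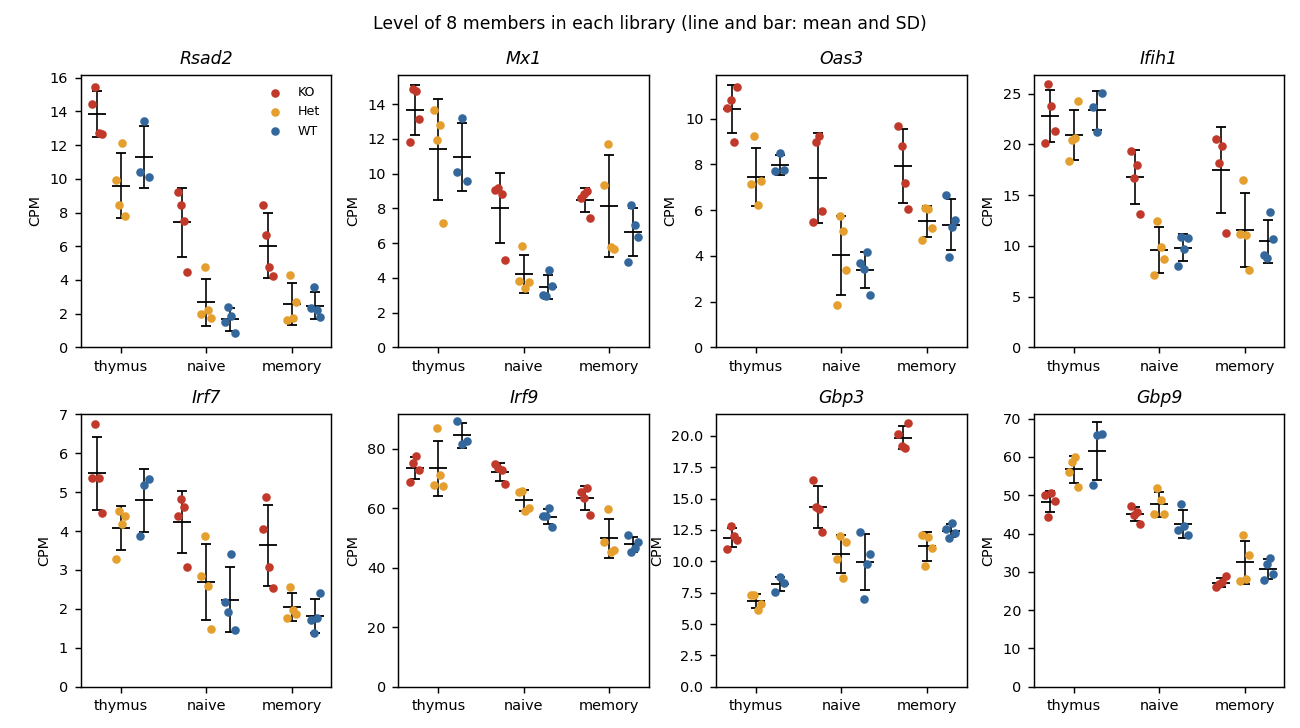
CPM per library (y axis, linear from 0) of Rsad2, Mx1, Oas3, Ifih1, Irf7, Irf9, Gbp3 and Gbp9, with KO, Het and WT side by side in thymus, naive and memory cells (x axis); each dot is a library and bars are the mean and SD. Rsad2 in KO naive cells lies between 4.47 and 9.20 CPM, above every WT naive library, while Gbp9 in the thymus is lower in KO than in WT.

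Gbp3 was the only called gene of 8 tested GTPases, which attack the membranes of intracellular pathogens. It had 16.5, 14.3, 14.2 and 12.3 CPM in KO, 10.2, 12.0, 8.63 and 11.5 in Het and 12.3, 7.03, 9.75 and 10.6 in WT naive cells. The KO and WT ranges met at 12.3 CPM, and the log2 fold change was 0.55 ± 0.13 (adjusted p = 0.00153). None of the 6 tested members of the ISG15, ubiquitin and PARP system was called or had an unadjusted p under 0.05, and DESeq2 called 0, with a median of 0.22. None of the 4 class I antigen processing genes was called, 1 had an unadjusted p under 0.05, DESeq2 called 0, and their median was -0.12. Psmb9, an immunoproteasome subunit, averaged 15.7 ± 0.948 CPM in KO and 19.8 ± 3.87 in WT naive cells (log2 fold change -0.31, adjusted p = 0.0705).

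In memory cells transcription factors, sensors, GTPases and an effector were higher in KO than in WT, led by the guanylate binding protein gene Gbp3, and an immunoproteasome gene was lower. Of 39 members 9 were higher in KO than in WT and 1 was lower (23.1% and 2.56%, against 12.8% higher, 9.32% lower and 22.2% in either direction of all tested genes). In all, 14 had an unadjusted p under 0.05, and DESeq2 called 8 higher and 1 lower. The median log2 fold change was 0.24 over the members, of which 32 had a positive value. Over all tested genes it was 0.007, and 51.1% of them had a positive value. With mean log ratio centring, which moved the median of all genes to -0.105, the members split into 7 higher and 3 lower, and all genes into 1019 higher and 1812 lower, against 1323 higher and 960 lower with TMM.

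Among the memory cell GTPases, 2 of 8 were higher in KO. Gbp3 had 20.1, 19.2, 19.0 and 21.0 CPM in KO, 12.1, 9.61, 12.0 and 11.1 in Het and 12.6, 11.8, 13.1 and 12.3 in WT memory cells. The KO libraries sat close together and far above both other genotypes. The log2 fold change against WT was 0.67 ± 0.12 (adjusted p = 2.89e-05). Gbp7, a neighbour of Gbp3 on chromosome 3, had 62.4, 61.7, 67.8 and 60.1 CPM in KO, 42.5, 58.9, 49.0 and 47.6 in Het and 38.4, 57.1, 44.7 and 46.6 in WT memory cells, without overlap. Its log2 fold change of 0.43 ± 0.13 (adjusted p = 0.00937) was no longer called with mean log ratio centring or without WT memory replicate 1 (adjusted p = 0.0728 at most). The Gbp genes are close paralogs, and 11.3% of the exon length of Gbp7 is shared with another gene on its strand, so the share of each in these counts is uncertain.

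Transcription factors and sensors were again higher in KO memory cells. Irf9 had 65.4, 63.4, 66.8 and 57.8 CPM in KO, 48.7, 59.6, 45.1 and 45.8 in Het and 50.9, 45.2, 46.6 and 48.5 in WT memory cells, with a log2 fold change against WT of 0.41 ± 0.08 (adjusted p = 0.000141). Irf7 had 4.04, 4.87, 3.08 and 2.54 CPM in KO, 1.78, 2.56, 1.97 and 1.88 in Het and 1.71, 1.39, 1.76 and 2.42 in WT memory cells, a difference of 1.01 ± 0.26 from WT (adjusted p = 0.00249). Neither gene overlapped between KO and WT. Irf1 (0.24, adjusted p = 0.115) and Stat2 (0.09, adjusted p = 0.891) did not pass.

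Of 6 sensors 3 were higher in KO memory cells. Ifih1 had 20.5, 18.2, 19.9 and 11.3 CPM in KO, 11.2, 16.5, 11.1 and 7.62 in Het and 9.09, 8.77, 13.4 and 10.7 in WT memory cells. KO replicate 4 fell within the WT range, and the log2 fold change was 0.77 ± 0.18 (adjusted p = 0.000945). Dhx58 had 1.61, 1.12, 1.23 and 1.83 CPM in KO and 0.621, 0.831, 0.549 and 0.448 in WT memory cells. It gave 1.21 ± 0.34 (adjusted p = 0.00768) on 12 to 27 reads per KO and 5 to 9 per WT library, and its groups did not overlap. Eif2ak2 had 2.02, 1.41, 1.3 and 1.41 CPM in KO and 0.544, 0.831, 0.220 and 0.627 in WT memory cells, also without overlap. It gave 1.44 ± 0.41 (adjusted p = 0.00751) on 10 to 34 reads per KO and 2 to 9 per WT library.

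The median log2 fold change of KO over WT was 0.22 over the effectors and 0.60 over the OAS genes in memory cells, against 0.64 and 1.35 in naive cells, though the test of the change between these subsets called no member. Rsad2 had 8.45, 6.65, 4.78 and 4.23 CPM in KO, 1.6, 4.32, 1.73 and 2.72 in Het and 2.33, 3.6, 2.19 and 1.79 in WT memory cells. It was the only called gene of 8 effectors, at 1.31 ± 0.29 (adjusted p = 0.000828), with KO above WT in every library. Oas3, the ninth of the higher members, had 9.69, 8.81, 7.18 and 6.06 CPM in KO and 6.68, 3.97, 5.27 and 5.56 in WT memory cells. The ranges overlapped and the call (0.57 ± 0.21, adjusted p = 0.0423) was lost in DESeq2, with mean log ratio centring and without any of WT memory replicates 2, 3 and 4 or KO memory replicates 1, 2 and 3 (adjusted p up to 0.175). Mx1 averaged 8.48 CPM in KO and 6.63 in WT memory cells (0.37, adjusted p = 0.232), and Cmpk2 gave 1.32 (adjusted p = 0.0581).

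Of the 4 class I antigen processing genes, 1 was lower in KO memory cells and none was higher. Psmb9, which replaces a constitutive catalytic subunit in the immunoproteasome, had 15.3, 12.7, 15.4 and 14.5 CPM in KO, 15.8, 18.4, 14.9 and 15.4 in Het and 20.3, 18.8, 21.4 and 19.4 in WT memory cells. Every KO library lay below every WT library, and the log2 fold change was -0.46 ± 0.12 (adjusted p = 0.00318). Psmb8, its partner subunit, had 32.4, 32.0, 24.5 and 24.5 CPM in KO and 34.6, 37.6, 32.5 and 35.8 in WT memory cells, also without overlap, but the difference of -0.31 was not called (adjusted p = 0.0528). Psmb9 and Tap1, the peptide transporter gene beside it, overlap on opposite strands, and Tap1 gave -0.04 (adjusted p = 0.889). Nlrc5, the activator of class I genes, gave 0.03 (adjusted p = 0.961). None of the 6 tested members of the ISG15, ubiquitin and PARP system was called in memory cells, none had an unadjusted p under 0.05, and DESeq2 called 0.

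**Figure D3:**
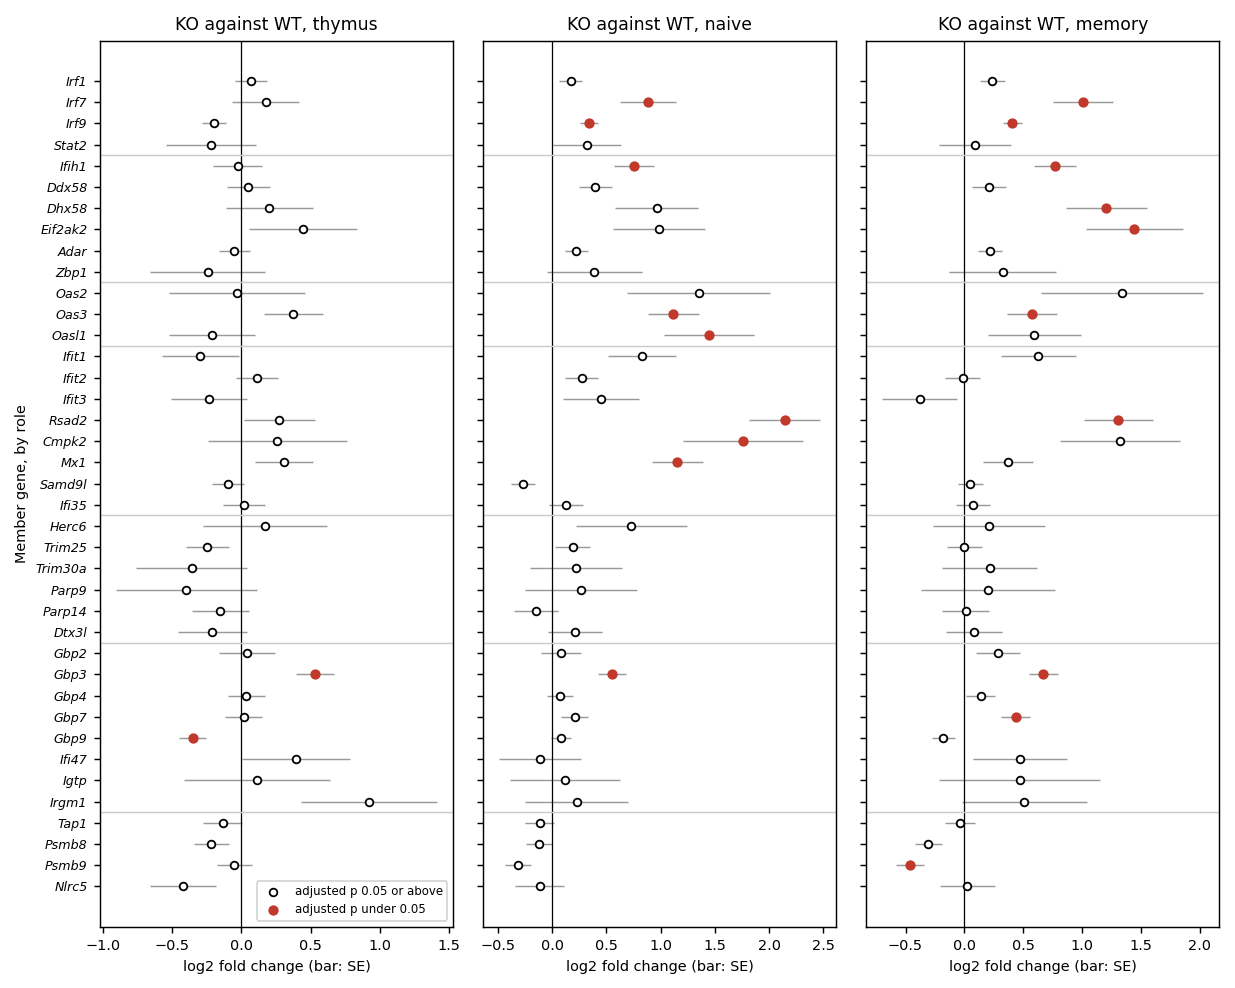
log2 fold change of KO over WT (x axis) with its SE for the 39 tested ISGs (y axis, grouped by role) in thymus, naive and memory cells; filled points have an edgeR adjusted p under 0.05. Naive and memory cells each have 9 filled points right of 0, and the thymus has 1 on each side.

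In the thymus few ISGs differed between KO and WT, and 2 guanylate binding protein genes moved in opposite directions. Of 39 members 1 was higher and 1 was lower (2.56% each, against 11.9% higher, 6.77% lower and 18.6% in either direction of all tested genes). An unadjusted p under 0.05 was found for 3 members, and DESeq2 also called 1 in each direction. The median log2 fold change was -0.03 over the members and 0.019 over all tested genes. Leaving out WT thymus replicate 2 or 3 brought the 2 calls to 1. With mean log ratio centring 1 member was higher and 2 were lower, and all genes split into 886 higher and 1342 lower, against 1222 and 697 with TMM.

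Gbp3 was the higher one, with 11, 12.8, 12.0 and 11.7 CPM in KO, 7.33, 7.29, 6.12 and 6.57 in Het and 7.59, 8.72 and 8.28 in WT thymus. The KO libraries lay above all others (0.53 ± 0.14 against WT, adjusted p = 0.00451), and Gbp3 was thereby the 1 member called in all 3 subsets. Gbp9, a relative on chromosome 5, was the lower one, with 49.98, 44.3, 50.5 and 48.5 CPM in KO, 56.2, 58.6, 60.0 and 52.1 in Het and 52.7, 65.8 and 66.0 in WT thymus. Its groups did not overlap (-0.35 ± 0.10, adjusted p = 0.00764), but without WT thymus replicate 2 or 3 the call was lost (adjusted p up to 0.0652).

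Members called in the spleen, Gbp3 apart, were not called higher in KO thymus. Rsad2 had 14.5, 15.4, 12.7 and 12.7 CPM in KO and 10.4, 13.4 and 10.1 in WT thymus (0.28, adjusted p = 0.541). Ifih1 had 20.1, 25.9, 23.8 and 21.4 CPM in KO and 23.7, 21.3 and 25.1 in WT thymus (-0.03, adjusted p = 0.948). Both pairs of ranges overlapped, and both Rsad2 and Ifih1 averaged more CPM in WT thymus than in either WT spleen subset. Oas3 had 10.5, 10.8, 8.99 and 11.4 CPM in KO and 7.72, 8.49 and 7.76 in WT thymus, and its ranges did not overlap, but the difference of 0.38 was not called (adjusted p = 0.260). Irf9 had 68.8, 75.1, 77.6 and 72.7 CPM in KO, 67.9, 86.9, 71.0 and 67.6 in Het and 89.3, 81.5 and 82.5 in WT thymus. Every KO library lay below every WT library, but the difference of -0.20 was not called (adjusted p = 0.114), with a range of 0.0128 to 0.327 over the alternative settings. Irf1 gave 0.07 (adjusted p = 0.769), Irf7 gave 0.17 (adjusted p = 0.705) and Stat2 gave -0.22 (adjusted p = 0.729).

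Of the 48 members, 34 were called in no KO against WT comparison, the 9 untested ones among them, 8 were called in 1, 5 in 2 and 1 in all 3. Each comparison called 18.6% (thymus), 18.2% (naive) and 22.2% (memory) of all tested genes. How often all genes were called over the 3 comparisons was not counted, so these numbers only describe the members. These 3 comparisons use separate libraries, but the labels do not say whether 1 mouse gave libraries of several subsets. Sexes read from Xist matched by replicate number over the 3 subsets in KO and in Het, and between WT naive and memory cells. WT thymus replicate 3 was male and WT naive and memory replicate 3 were female, so equal numbers there were not 1 mouse. The 3 sets of calls are thus not taken as independent.

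**Figure D4:**
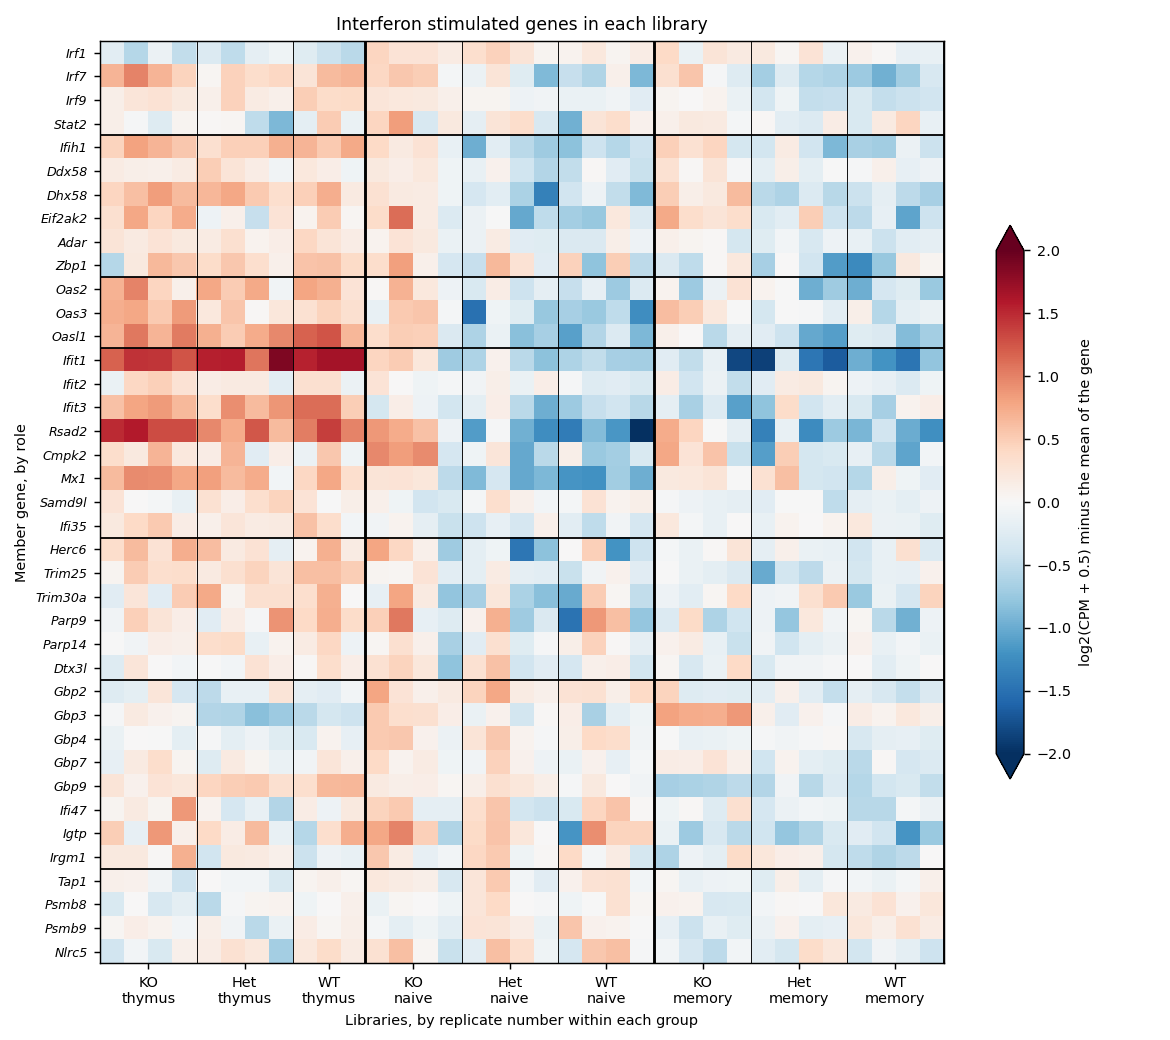
log2(CPM + 0.5) minus the mean of each gene over all libraries (colour) for the 39 tested ISGs (rows, by role) in the 35 libraries (columns, by subset and genotype). The thymus libraries of all genotypes are high for OAS genes and most effectors, and in the spleen KO naive replicates 1 to 3 are higher than WT naive libraries.

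Levels of 1 member of each role, the 1 with the lowest p in the KO against WT tests, were then ordered over the 9 groups. Of the 8 steps between neighbours in each order, few exceeded the sum of both SDs. Rsad2 was highest in the thymus, at 13.8 ± 1.37 CPM in KO, 9.58 ± 1.92 in Het and 11.3 ± 1.85 in WT. KO naive (7.41 ± 2.07) and KO memory cells (6.03 ± 1.92) followed, and the 4 Het and WT spleen groups lay between 1.67 and 2.68. The 1 step beyond both SDs lay between KO memory and Het naive cells, and the step from Het thymus to KO naive cells was within them. As the gene was picked for its KO against WT p, this order is a description. Ifih1 had the same order of blocks, with thymus groups at 20.9 to 23.4 CPM, KO memory at 17.5 ± 4.24, KO naive at 16.8 ± 2.64 and the other spleen groups at 9.58 to 11.6, but no step exceeded both SDs.

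Irf9 was highest in WT thymus (84.5 ± 4.25 CPM), a clear step above KO thymus (73.6 ± 3.72), Het thymus (73.3 ± 9.17) and KO naive cells (72.2 ± 3.01). The next clear step led down to KO memory cells (63.3 ± 3.95), and WT memory cells were lowest (47.8 ± 2.47). Oas3 was highest in KO thymus (10.4 ± 1.03), 1 clear step above WT thymus (7.99 ± 0.430), and lowest in WT naive cells (3.40 ± 0.790). Trim25, a ubiquitin ligase that activates RIG-I, was highest in WT thymus (12.4 ± 0.538), a clear step above KO thymus (10.3 ± 1.37), and lowest in Het memory cells (5.78 ± 1.54).

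The other representatives had another order. Gbp3 was highest in KO memory cells (19.8 ± 0.918), a clear step above KO naive cells (14.3 ± 1.68), and lowest in Het thymus (6.83 ± 0.588), a clear step below WT thymus (8.2 ± 0.569). Psmb9 was lowest in KO memory (14.5 ± 1.28) and highest in WT memory cells (19.99 ± 1.11), with no step beyond both SDs in between.

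Against Het, which keeps 1 intact allele, KO naive cells again had higher levels of Rsad2, Mx1, Ifih1, Oas3 and Gbp3. In memory cells the share called higher was above that of all genes, but the share called in either direction was under it. In the thymus Gbp3 was the only call. KO against Het and KO against WT share the KO libraries, so their values stand side by side. In naive cells 8 members were higher and 0 lower (20.5%, against 10.5% of all tested genes higher, 6.5% lower and 16.9% in either direction), in memory cells 7 and 0 (17.9%, against 11.6%, 8.59% and 20.2%), and in the thymus 1 and 0 (2.56%, against 11.9%, 7.28% and 19.1%). With mean log ratio centring these became 6 higher and 3 lower, 6 and 1, and 1 and 2, counted for members only and without the share of all genes. In naive cells the log2 fold changes were 1.46 ± 0.29 for Rsad2 (edgeR adjusted p = 0.000325), 0.81 ± 0.18 for Ifih1 (adjusted p = 0.00105), 0.91 ± 0.23 for Mx1 (adjusted p = 0.00285), 0.88 ± 0.22 for Oas3 (adjusted p = 0.00362) and 0.43 for Gbp3 (adjusted p = 0.0111). Without Het naive replicate 3, 4 members were called. The replicate numbers of KO and Het naive libraries deviated together, and with the replicate number as a block 9 members were called.

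In KO memory cells the leading members against Het were Gbp3 (0.82 ± 0.12, adjusted p = 1.85e-06), Irf9 (0.36 ± 0.08, adjusted p = 0.00113), Rsad2 (1.31 ± 0.31, adjusted p = 0.00146), Dhx58 (1.31 ± 0.37, adjusted p = 0.00668) and Ifih1 (0.64 ± 0.18, adjusted p = 0.00757). The largest Het library for Rsad2, replicate 2 at 4.32 CPM, lay just above the lowest KO library at 4.23 CPM. In the thymus the called member was Gbp3 (0.80 ± 0.13, adjusted p = 9.81e-06), which averaged 11.9 CPM in KO and 6.83 in Het. Without KO thymus replicate 1 or Het thymus replicate 2 or 4, 2 members were called there.

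Het and WT were not told apart for any member. edgeR and DESeq2 each called 0 of 39 in the thymus, in naive and in memory cells, while 1, 0 and 2 members had an unadjusted p under 0.05. All tested genes gave 0, 0 and 1 call (0.00971% of genes in memory cells). The member medians were -0.12, 0.09 and 0.06.

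In Het and WT, more ISGs were lower than higher in naive cells of the spleen when set against CD8 single positive thymocytes, and in KO the share of lower members was near that of all genes. In WT 1 member was higher and 16 were lower in naive cells (2.56% and 41%, against 15.3% higher, 16.9% lower and 32.2% in either direction of all tested genes). In Het 4 were higher and 17 lower (against 19.8%, 19.7% and 39.5%), and in KO 3 and 8 (20.5% lower, against 22.4%, 21.7% and 44.1%). The member medians were -0.12 in KO, -0.28 in Het and -0.48 in WT. With mean log ratio centring the split was 4 higher and 6 lower in KO, 6 and 11 in Het, and 2 and 15 in WT, counted for members only and without the share of all genes. In KO, 7 members were called without KO thymus replicate 2 or 4, and 7 without both KO naive replicates 3 and 4. With 1 library left out at a time, the count was 14 to 20 in Het and 15 to 19 in WT.

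By role, all 3 tested OAS genes and 6 of 8 effectors were lower in WT naive cells than in WT thymus, and 2 of 3 and 5 of 8 were so in KO. Rsad2 averaged 1.67 CPM in WT naive and 11.3 in WT thymus (log2 fold change -2.77 ± 0.33, adjusted p = 2.35e-08), and 7.41 CPM in KO naive and 13.8 in KO thymus (-0.90 ± 0.25, adjusted p = 0.00324). Without both KO naive replicates 3 and 4 the KO change was not called (adjusted p = 0.0773). Ifit1 averaged 8.52 and 42.1 CPM in WT naive and thymus (-2.31 ± 0.31, adjusted p = 1.11e-06), and 15.2 and 34.2 CPM in KO naive and thymus (-1.18 ± 0.27, adjusted p = 0.000858). Mx1 gave -1.63 ± 0.24 in WT (adjusted p = 1e-06) and -0.78 ± 0.20 in KO (adjusted p = 0.00154).

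In Het and WT, Irf9 and Irf1 went opposite ways between naive cells and thymus. Irf9 averaged 72.2 CPM in KO naive and 73.6 in KO thymus and was not called (-0.03, adjusted p = 0.809), and it was lower in Het naive cells than in Het thymus (-0.23, adjusted p = 0.0209). In WT it averaged 57.2 CPM in WT naive and 84.5 in WT thymus (-0.56 ± 0.09, adjusted p = 1.64e-06), and Ifih1 was lower as well (-1.23 ± 0.19, adjusted p = 2.56e-06). Irf1 was higher in naive cells of every genotype, with 92.7 CPM in KO naive and 59.9 in KO thymus (0.63, adjusted p = 6.63e-06), and 82.3 CPM in WT naive and 57.2 in WT thymus (0.53 ± 0.12, adjusted p = 0.000513). In KO naive cells Gbp4 (0.37, adjusted p = 0.0115) and Gbp2 (0.48, adjusted p = 0.0348) were also higher, and Ifit3 (-1.11, adjusted p = 0.00166) and Ifi35 (-0.51, adjusted p = 0.00457) were lower than in KO thymus. In Het naive cells Mx1 (-1.43), Ifit1 (-2.03), Ifih1 (-1.13), Rsad2 (-1.83) and Oasl1 (-1.85) were lower, and Irf1 (0.54), Gbp3 (0.63), Gbp4 (0.37) and Gbp2 (0.52) were higher.

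Whether the KO to WT difference itself changed from thymus to naive cells was tested as an interaction term. Of 39 members 4 had a larger KO to WT log2 ratio in naive cells than in thymus and 0 a smaller one (10.3%, against 3.01% of all tested genes larger, 3.33% smaller and 6.34% in either direction), and DESeq2 called 4. An unadjusted p under 0.05 was found for 8 members. Of 39 values 35 were positive, against 49.6% of all tested genes. The median was 0.43 over the members and -0.004 over all tested genes. The called members were Irf9 (0.53 ± 0.12, adjusted p = 0.00336), Rsad2 (1.87 ± 0.42, adjusted p = 0.00474), Gbp9 (0.44 ± 0.14, adjusted p = 0.0431) and Oasl1 (1.66 ± 0.52, adjusted p = 0.0452). For Irf9 and Gbp9 the KO value was below WT in the thymus. Oasl1 was lost in DESeq2 and in 14 other alternatives (adjusted p up to 0.147), and Gbp9 in 13 (adjusted p up to 0.161). The count was 2 when WT thymus replicate 2, KO thymus replicate 1, 2 or 4, WT naive replicate 1 or 4 or KO naive replicate 1, 2 or 3 was left out, and 7 without KO naive replicate 4.

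**Figure D5:**
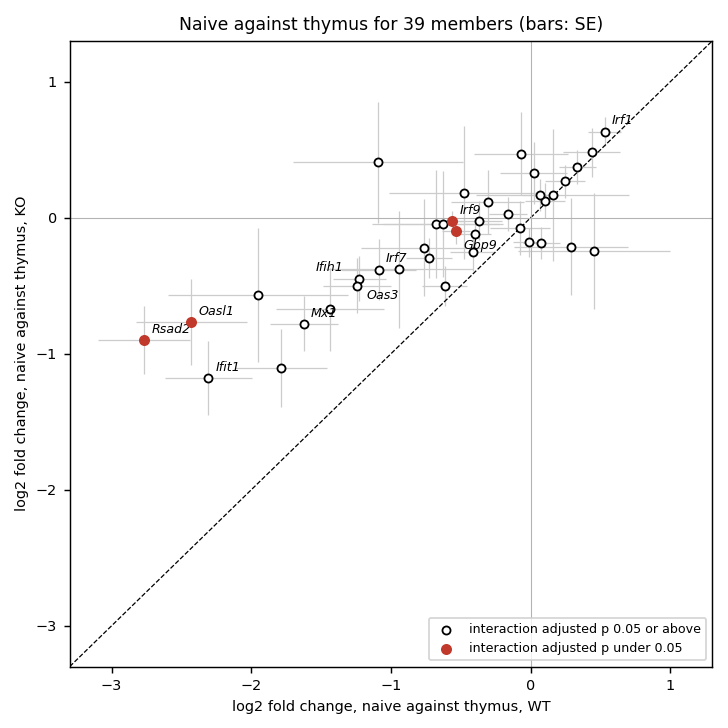
log2 fold change of naive cells over thymus in KO (y axis) and in WT (x axis) for the 39 tested ISGs, with SE bars, a dashed line of equality and filled points for the interaction at an edgeR adjusted p under 0.05. Of 39 points 35 lie above the line, among them Rsad2 at -0.90 in KO and -2.77 in WT.

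The same test between the spleen subsets, memory minus naive, called 0 of 39 members (against 0.67% of all tested genes larger, 1.12% smaller and 1.79% in either direction), 2 had an unadjusted p under 0.05, and DESeq2 called 0. The median of the interaction was -0.01.

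Few ISGs differed between memory and naive cells of 1 genotype, and their shares in either direction were near or under those of all genes. Gbp9 was the member called in all 3 genotypes. In memory cells 1 member was higher and 3 lower in KO (2.56% and 7.69%, against 8.69% higher, 8.61% lower and 17.3% in either direction of all tested genes), 1 and 3 in Het (against 8.31%, 8.57% and 16.9%), and 1 and 5 in WT (against 7.68%, 7.38% and 15.1%). It was lower in memory cells, averaging 27.2 CPM in KO memory and 45.1 in KO naive cells (-0.73 ± 0.10, adjusted p = 1.13e-07), 32.5 and 47.7 CPM in Het memory and naive cells (-0.56 ± 0.10, adjusted p = 1.47e-05), and 30.8 and 42.6 CPM in WT memory and naive cells (-0.47 ± 0.10, adjusted p = 0.000284). The member called higher in KO memory cells was Gbp3, at 19.8 CPM in memory and 14.3 in naive cells (0.47, adjusted p = 0.00387), which was lost without both KO naive replicates 3 and 4 (adjusted p = 0.103). In Het and WT the member called higher in memory cells was Mx1, at 8.11 CPM in Het memory and 4.22 in Het naive cells (0.92, adjusted p = 0.00302), and 6.63 in WT memory and 3.50 in WT naive cells (0.88, adjusted p = 0.00838).

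The remaining calls between memory and naive cells were all lower in memory. Gbp4 gave -0.38 in KO (adjusted p = 0.0227) and -0.45 in WT (adjusted p = 0.0099), and Igtp, an immunity-related GTPase, gave -1.52 in KO (adjusted p = 0.0497) and -1.87 in WT (adjusted p = 0.0327). Irf9 gave -0.34 in Het (adjusted p = 0.00253) and -0.26 in WT (adjusted p = 0.0272), and Gbp2 gave -0.60 in both (adjusted p = 0.0244 in Het and 0.0283 in WT). These counts are small and move with single libraries. The KO count of 4 was 2 without KO naive replicate 1 or 2 or KO memory replicate 2 or 3, the Het count of 4 was 7 without Het memory replicate 2, and the WT count of 6 was 2 without WT naive replicate 2 and 3 without WT memory replicate 3.

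The pathway around the members was read from 6 further lists, whose counts stand against the shares of all genes given above (11.9% higher and 6.77% lower in KO thymus, 11.1% and 7.11% in KO naive cells, 12.8% and 9.32% in KO memory cells). With so few genes in a list, 1 call is near those shares. Of 6 tested receptor and kinase genes, the kinase gene Jak2, used by the interferon gamma receptor, was higher in KO naive cells at 82.6 ± 4.07 CPM against 50.7 ± 5.31 in WT (0.71 ± 0.10, adjusted p = 1.95e-07), and in KO memory cells at 91.6 CPM against 62.3 in WT (0.56 ± 0.09, adjusted p = 8.49e-06). It was the 1 call of that list in each spleen subset, and in the thymus the 1 call was Jak1, lower in KO at 1283 CPM against 1466 in WT (-0.19, adjusted p = 0.0404). Of 8 tested further transcription factors 1 was higher in KO thymus, 3 were higher in KO naive cells, and 1 was higher in KO memory cells. Irf8 was higher in KO thymus at 2.51 CPM against 1.06 in WT (1.34, adjusted p = 0.00132) and in KO naive cells at 3.22 against 1.504 (1.07, adjusted p = 0.00344). Irf4, induced by T cell receptor signals, was higher in KO naive cells (1.36, adjusted p = 0.00144).

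Negative regulators of interferon signalling, 10 tested, gave 0 higher and 1 lower in KO thymus, 1 and 2 in KO naive cells, and 1 and 3 in KO memory cells. Irf2bp2, a corepressor partner of IRF2, was higher in KO naive cells at 95.9 CPM against 53.4 in WT (0.84, adjusted p = 7.09e-07) and in KO memory cells (0.54, adjusted p = 0.000416). Ptpn1, a phosphatase of JAK2 and TYK2, was lower in KO memory cells at 12.4 CPM against 18.9 in WT (-0.62, adjusted p = 1.08e-05). Pias1, an inhibitor of STAT signalling, was lower in both KO spleen subsets (-0.25 in each, adjusted p = 0.00827 in naive and 0.00676 in memory cells). Of 8 tested nucleic acid sensing genes, 1 was higher and 2 lower in KO thymus, 2 and 0 in KO naive cells, and 2 and 1 in KO memory cells. Samhd1, a dNTP hydrolase that restricts retroviruses, was higher in all 3 KO subsets, at 147 CPM against 92.1 in WT thymus (0.68, adjusted p = 8.15e-07), 226 against 157 in WT naive cells (0.52, adjusted p = 1.4e-05) and 207 against 136 in WT memory cells (0.61, adjusted p = 5.08e-07).

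Of 54 further ISGs outside the 48, 34 were tested. In KO against WT they gave 1 higher and 1 lower in the thymus, 3 and 0 in naive cells, and 3 and 1 in memory cells. Their medians in naive and memory cells were 0.16 and 0.11. In naive cells 27 of 34 were positive, against 50.6% of all tested genes. The shares called higher were below the 11.1% and 12.8% of all genes in naive and memory cells. Mx2, a relative of Mx1, was higher in KO naive cells at 4.78 CPM against 2.12 in WT (1.19, adjusted p = 0.00233) and in KO memory cells (1.24, adjusted p = 0.00147). Epsti1 was lower in KO memory cells (-0.62, adjusted p = 9.64e-06). These further ISGs thus had smaller median differences than the 48, a description that was not tested. Both lists were chosen with earlier results of these data known.

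Defining markers of other cells that respond to interferon were read in the same libraries. Cd4 had at most 2 counts and the NK receptor gene Ncr1 had 0 in any library, and 5 of 6 NK markers never passed 10 counts. The sixth, Eomes, also a memory CD8 gene, was higher in KO thymus at 45.4 CPM against 9.61 in WT (2.29, adjusted p = 5.64e-09), in KO naive cells at 138.8 against 57.1 (adjusted p = 1.12e-06) and in KO memory cells at 315 against 181 (0.80, adjusted p = 0.000271). The summed level of that list was 115.5 to 180.8 CPM in KO and 45.5 to 66.8 in WT naive cells, and 276 to 356 CPM in KO and 166 to 193 in WT memory cells. Nearly all of that sum was Eomes, at 138.8 of a mean 138.9 CPM in KO naive cells.

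For plasmacytoid dendritic cells, a main source of type I interferon, 3 of 6 markers were tested and the defining Siglech had at most 6 counts. Without Bst2, a member, the summed level was 69.98 to 100.5 CPM in KO and 63.2 to 81.5 in WT naive cells, and 47.99 to 57.5 CPM in KO and 10.9 to 18.5 in WT memory cells, while in the thymus it was 107 to 132.5 CPM in KO and 164 to 187 in WT. Most of that sum was Ccr9 and Tcf4, with Tcf4 at 46.3 of a mean 52.3 CPM in KO memory cells. It is thus not read as a level of plasmacytoid dendritic cells. The tested markers went in different directions. Tcf4 was higher in KO thymus (0.56, adjusted p = 0.0434), naive (1.78, adjusted p = 2.95e-08) and memory cells (2.57, adjusted p = 2.19e-11), Irf8 was higher in KO thymus and naive cells and Ccr9 was lower in KO thymus (-1.13, adjusted p = 5.6e-05) and naive cells (-0.85, adjusted p = 0.00136). B cell markers gave no call in the spleen subsets and summed to 12.4 to 229 CPM in KO and 14.3 to 99.9 in WT naive cells, highest in KO naive replicate 4, the KO library with the lowest ISG levels. Of 8 myeloid markers 6 never passed 10 counts, and their sum was 0.548 to 10.1 CPM in KO and 1.15 to 3.66 in WT naive cells. Of 5 CD4 T cell markers 3 were tested. Zbtb7b was higher in KO naive (3.19, adjusted p = 0.0012) and memory cells (1.71, adjusted p = 0.00195), Ctla4 was lower in KO memory cells (-1.16, adjusted p = 0.0102), and Foxp3 gave -0.40, -0.88 and -0.77 in thymus, naive and memory cells and was not called. The part of these levels and of Cd44 in the ISG differences was not tested. Without both KO naive replicates 3 and 4, the KO against WT test in naive cells called 11 members higher and 0 lower, 9 of them also called with all libraries, at a median of 0.51. Replicate 4 had the lowest mean ISG level of its group, so leaving it out favours higher calls from the start. No share of all genes is given for that fit, and it does not bear on the part of these marker levels.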

How the data were processed

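RNA was taken from flow-sorted CD8 T cells, and per the labels' protocols only samples with a high RNA integrity number went into strand-specific libraries. The authors deposited 1 table of raw read counts per gene and library, made with TopHat2 2.1.0 and HTSeq 0.9.1 on GRCm38 per the submitters' processing notes. Symbols and positions came from GENCODE on GRCm38 and promoter windows from RefSeq on GRCm38.p6. The members and lists were chosen with earlier results of these data known.

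Genes with too few counts were left out with edgeR's filterByExpr (minimum count 10), which kept 10296 of the 52636 genes. Library sizes were scaled by TMM (factors 0.927 to 1.07), 1 mean was fitted per group over all 35 libraries, and contrasts were tested with edgeR 4.0.16 (robust quasi-likelihood F test, two-sided, prior count 2, R 4.3.3), with Benjamini-Hochberg adjustment over all genes tested. Each SE was obtained by dividing the size of the log2 change by the root of its F statistic. At 4809509 to 16879636 reads per library, genes near 1 CPM rest on few reads. Reads were counted on the sense strand (Xist was counted and its antisense Tsix was near 0). No 2 libraries were duplicates.

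Named genes were, per subset, up to 8 called members per direction in KO against WT and the 4 transcription factors, up to 5 per direction in other comparisons, every called interaction, up to 4 called genes of each other list and every untested member. A result for another list gene is not reported here. Other genes with values, among them Cmpk2 in naive and Oas3 in memory cells, were picked with their values already known. The alternatives comprised DESeq2 1.42.0, centring on the mean log ratio, no filter, only the compared libraries, the replicate number as a block and each library left out in turn. Same-numbered libraries deviated together in every pair (correlation of deviations above 0.1) between KO and Het naive cells (0.144 to 0.262) and between WT memory and WT naive cells (0.206 to 0.31), and not in every pair of the other comparisons, so the fit without the block is the one reported. Replicate 3 was male in WT thymus and female in WT naive and memory cells, so the block joined libraries of different mice there.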

Additional observations from a re-analysis of the deposited data

Results flagged for a closer look

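Each of the 14 members called in a KO against WT comparison was checked in every group of 4 libraries for a single library standing apart from the others. Of 112 such checks 6 were positive, where chance gives about 1 in 20. Other members named above were not checked. Het naive replicate 2 was the highest Het naive library for Rsad2, at 4.75 CPM with the next library at 2.25, and for Mx1, at 5.84 CPM with the next at 3.83. KO naive replicate 4 was the lowest KO naive library for Cmpk2, at 0.497 CPM with the next at 1.75, and for Mx1, at 5.05 CPM with the next at 8.82. KO memory replicate 1 was high for Eif2ak2, at 2.02 CPM with the next at 1.41, and WT naive replicate 1 was high for Psmb9, at 25.6 CPM with the next at 18.4.

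The KO to WT log2 ratio was larger in naive cells than in thymus by 0.53 for Irf9, 1.66 for Oasl1, 1.87 for Rsad2 and 0.44 for Gbp9, each by a test of the difference itself (edgeR interaction term). Rsad2 and Irf9 are an effector and a transcription factor, and Gbp9 is among the genes that were lower in KO thymus.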

How the results depend on the processing

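The counts below are of members only, without the share of all genes under the same setting. A shift of the members thus cannot be told apart from a shift of all genes. When a fit held just the libraries compared, 4 members instead of 2 were called in KO against WT thymus, 3 instead of 1 in KO against Het thymus, 4 instead of 8 in KO against Het naive cells, 2 instead of 4 in KO memory against naive cells and 7 instead of 4 in the interaction of naive and thymus. KO against Het in the thymus gave 3 calls with mean log ratio centring, 2 without the filter and 4 with the replicate block. Without both KO naive replicates 3 and 4, 7 instead of 11 were called in KO naive cells against thymus. Leaving out 1 library at a time gave 1 to 2 calls for KO against WT and for KO against Het in the thymus, 4 to 12 for KO against Het in naive cells, 2 to 5, 3 to 7 and 2 to 8 for memory against naive cells in KO, Het and WT, 7 to 12 for KO naive cells against thymus and 2 to 7 for the interaction. KO against WT gave 8 to 12 in naive and 9 to 13 in memory cells. Naive cells against thymus gave 14 to 20 in Het, under the 21 with all libraries, and 15 to 19 in WT. With the replicate block, KO against WT gave 2, 10 and 11 calls in thymus, naive and memory cells, memory against naive cells gave 4, 5 and 7 in KO, Het and WT, and Oasl1 left the interaction. Signs reversed only near 0, for Irf1 in the thymus (0.07, between -0.015 and 0.145 with 1 library left out, with -0.038 under mean log ratio centring, -0.001 without WT thymus replicate 3 and -0.015 without KO thymus replicate 3), Stat2 in the thymus (-0.22, between -0.369 and 0.156 with 1 library left out, the positive value without WT thymus replicate 2) and Stat2 in memory cells (0.09, between -0.064 and 0.249 with 1 library left out, with -0.022 under that centring and -0.064 without WT memory replicate 1). The cause was not tested. Members under 2 CPM in most libraries, such as Oas2, Oasl1, Cmpk2, Dhx58 and Eif2ak2, rest on few reads there, so small differences in them were not detectable at this depth.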
